A study of Mus musculus with 8 samples.

Results

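AMP-activated protein kinase (AMPK) is the main energy sensor of the hepatocyte, and 10 genes for its subunits and for the kinases that switch it on were examined in irisin-treated mouse liver cells. The genes were Prkaa1, Prkaa2, Prkab1, Prkab2, Prkag1 and Prkag2 for the subunits, Stk11, Strada and Cab39 for the LKB1 complex, and Camkk2. All probes whose transcript accession belongs to one of these genes were taken. They were 12 probes of the 28663 that could be named, covering 10 of 21612 genes, and Cab39 and Camkk2 had 2 probes each. Every one of the 12 probes was well above background on all 8 arrays, and none of their 168 spots was marked as faulty or saturated.

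AML12 is an immortalized hepatocyte line, made from mice that carry a human transforming growth factor α transgene. Irisin is the peptide cleaved from the membrane protein FNDC5. Cells of this single line were grown in medium with serum and cultured for 24 hr either with 0.5 µg/ml irisin (4 arrays) or without it (4 arrays). RNA of each sample was labeled with Cy3 and read on a one-color Agilent array. Nothing in the labels says whether the 4 replicates of a group came from separate cultures. The p-values set the difference between groups against the spread between samples of a group, and this spread may be technical.

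AMPK is a trimer of a catalytic α subunit, a scaffolding β subunit that also binds glycogen, and a γ subunit that senses AMP, ADP and ATP. The kinase becomes active when a threonine of the α subunit is phosphorylated, by LKB1 held in a complex with STRAD and MO25, or by the calcium-dependent kinase CaMKK2. Active AMPK restrains fatty acid, cholesterol and glucose production in liver and favors fat oxidation and autophagy. The arrays read mRNA, and neither the phosphorylation nor the activity of AMPK was measured on them.

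The hepatocyte identity of the samples was read from marker genes. Of 12 hepatocyte markers, 11 were well above background on all 8 arrays, Alb and Ttr among them, and the exception was Cps1. Of the other markers, 5 of 6 cholangiocyte genes were also detected on all arrays, 3 of 7 macrophage or leukocyte genes, 2 of 8 fibroblast or stellate cell genes, 2 of 6 endothelial genes and 2 of 6 skeletal muscle genes. The hepatocyte markers summed to signals between 191307 and 248141 in the control arrays and between 299911 and 324067 in the irisin arrays, the cholangiocyte markers to 20820 to 33229 and 39726 to 50944, and the 6 fibroblast genes Col3a1, Dcn, Lum, Pdgfrb, Des and Lrat were above background on no array. These sums moved with the brightness of the arrays. The hepatocyte sum rested largely on its brightest probes, with mean control signals of 89545 for Krt18 and 54663 for Trf, and 9633 for Alb. Sums of different lists are therefore not compared. At their 75th percentile, control arrays read 472 ± 70.1 (SD, n = 4) and irisin arrays 783 ± 71.6 (SD, n = 4). All control arrays lay on 1 slide and all irisin arrays on another, each scanned separately, so the treatment cannot be told apart from slide and scan in any value below. Unless stated otherwise, a level is the log2 signal minus the 75th percentile of its array, and a change is the irisin mean minus the control mean on that scale. Levels of different probes are not set against each other, because each probe binds with its own strength.

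No AMPK subunit and no upstream kinase passed the threshold of 1.5-fold with an adjusted p under 0.05 in limma. Among all 14312 genes tested, 0.531% were called higher and 10.2% lower with irisin. The 10 changes ran from −0.26 for Prkab1 to 0.19 for Prkag1 on the log2 scale, with 3 above 0 and 7 below, and their median of −0.12 compares with −0.064 over all genes. Their adjusted p-values (limma, Benjamini-Hochberg) ran from 0.0791 to 0.915. At an unadjusted p under 0.05, limma gave 0 members higher and 2 lower, Prkag2 and Cab39, where the shares of all genes were 5.94% higher and 23.6% lower. The 95% confidence interval of the change lay within 1.5-fold in either direction for all 12 probes, and the bound farthest from 0 was −0.58 for Prkab1. With the wider spread of the methods' test (the per-probe test that the study's methods name) the lower bounds of Prkaa1, Prkab1 and the second Cab39 probe passed that limit, at −0.74, −0.67 and −0.60. With an array left out they reached −0.71 for Prkaa1, −0.66 for Prkab1 and −0.59 for the second Cab39 probe. The limit also depended on normalization. The lower bounds of Prkaa1 and Prkab1 were −0.60 and −0.59 after quantile normalization. After cyclic loess they were −0.62 and −0.59, and the upper bound of Prkaa2 was 0.59. With the median of detected probes the lower bound of Prkab1 was −0.59. After normexp background correction the upper bounds of Prkaa2, the second Camkk2 probe and Prkab2 were 1.38, 1.42 and 0.73. The lower bounds were then −0.78 for Prkaa1, −0.68 for Cab39, −0.60 for its second probe and −0.67 for Prkag2. With spike-in scaling or no scaling the upper bounds of all 12 probes passed 1.5-fold. Relative to the median gene, the 10 members lay between −0.20 and 0.26.

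**Figure D1:**
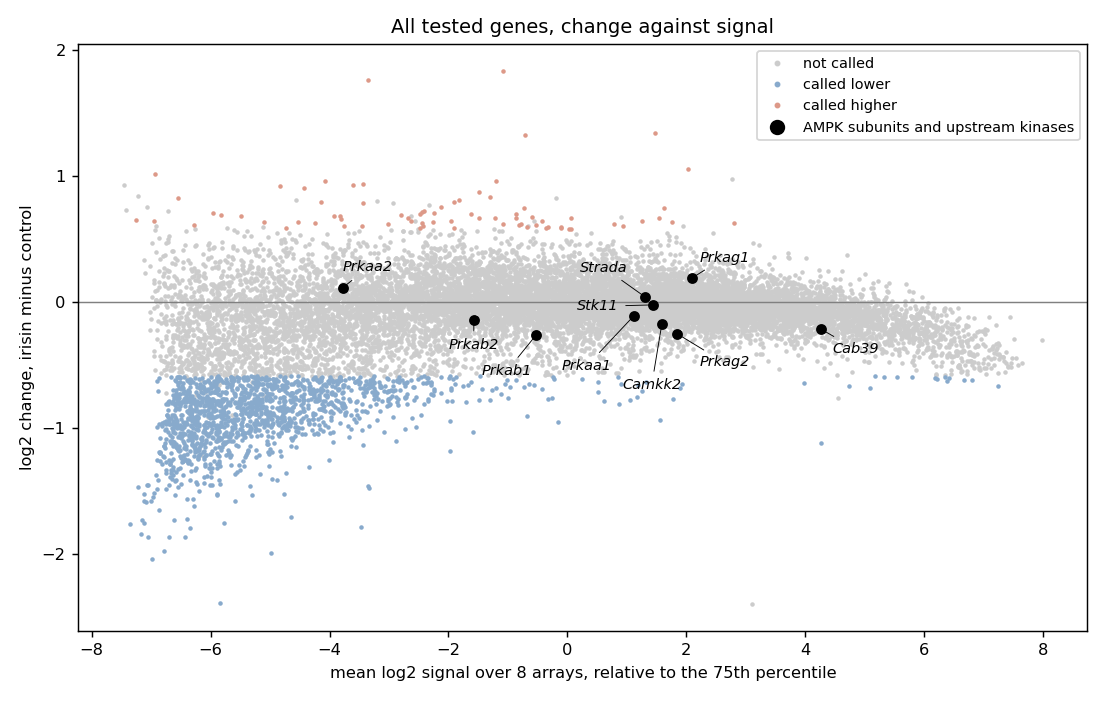
Each point is one of the 14312 tested genes, with its mean log2 signal over 8 arrays on the x axis and its log2 change (irisin minus control) on the y axis. Genes called lower or higher are colored, and the 10 AMPK genes in black all lie between −0.26 and 0.19, inside the band of uncalled genes.

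The genes called lower were mostly dim, and most AMPK genes were not. Of probes in the dimmest 3 of 10 signal classes of equal size, 33.0% were called lower and their median change was −0.30, whereas 2.54% of the probes in the brighter classes were called lower with a median change of −0.047. Only 2 of the 12 AMPK probes lay in the dim range, the Prkaa2 probe and the second Camkk2 probe. Their changes were 0.12 and 0.0021 on this scale, and their sign depended on the background correction. After normexp background correction with faulty local backgrounds repaired they were −0.30 (limma adjusted p = 0.0096) and −0.34 (limma adjusted p = 0.0050). All irisin arrays then lay below all controls for both probes, as they did for 4788 of the 14312 genes tested. The median change of all probes was −0.17 in that setting. The changes of these 2 probes were under 1.5-fold. They were 0.28 and 0.20 after quantile normalization, and 0.47 and 0.45 after normexp on all spots.

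The γ subunits carry the nucleotide-binding sites of the trimer, and Prkag2, encoding γ2, had the lowest adjusted p of the members. It measured 2.00, 1.97, 1.97 and 1.97 in the control arrays and 1.84, 1.80, 1.48 and 1.79 in the irisin arrays. All 4 irisin arrays lay below all 4 control arrays, and the irisin array of replicate 3 was the lowest. The mean went from 1.98 ± 0.012 to 1.73 ± 0.167 (SD, n = 4 each), a change of −0.25 (95% interval −0.46 to −0.044). An exact two-sided permutation test gave p = 0.0286, the smallest value that 4 against 4 arrays allow. Across all tested probes the limma adjusted p was 0.0791 and the change was under 1.5-fold, so Prkag2 was not called. It was the 1 member whose groups did not overlap with irisin lower, which was the case for 19.7% of all genes tested. None was apart with irisin higher, against 4.16% of all genes. With irisin replicate 3 left out, the change of Prkag2 was −0.17. After normexp background correction with faulty local backgrounds repaired it was −0.26 (limma adjusted p = 0.027, under 1.5-fold). The groups were then apart with irisin lower, as for 4788 of the 14312 genes tested.

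Prkag1, which encodes the broadly expressed γ1 subunit, leaned the other way. It was printed at 10 spots on each array, and the brightest and dimmest of these spots differed by 1.06- to 1.20-fold within an array. Its control arrays measured 2.01, 1.95, 2.09 and 1.96 and its irisin arrays 2.03, 2.55, 2.09 and 2.13. Replicate 2 of the irisin group stood above the rest while the other irisin arrays lay close to the controls, and the groups overlapped. The means were 2.00 ± 0.061 and 2.20 ± 0.235 (SD, n = 4 each), with a change of 0.19 (95% interval −0.061 to 0.45). Neither the exact permutation test (p = 0.0857) nor limma (adjusted p = 0.276) passed, and without irisin replicate 2 the change was 0.079.

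**Figure D2:**
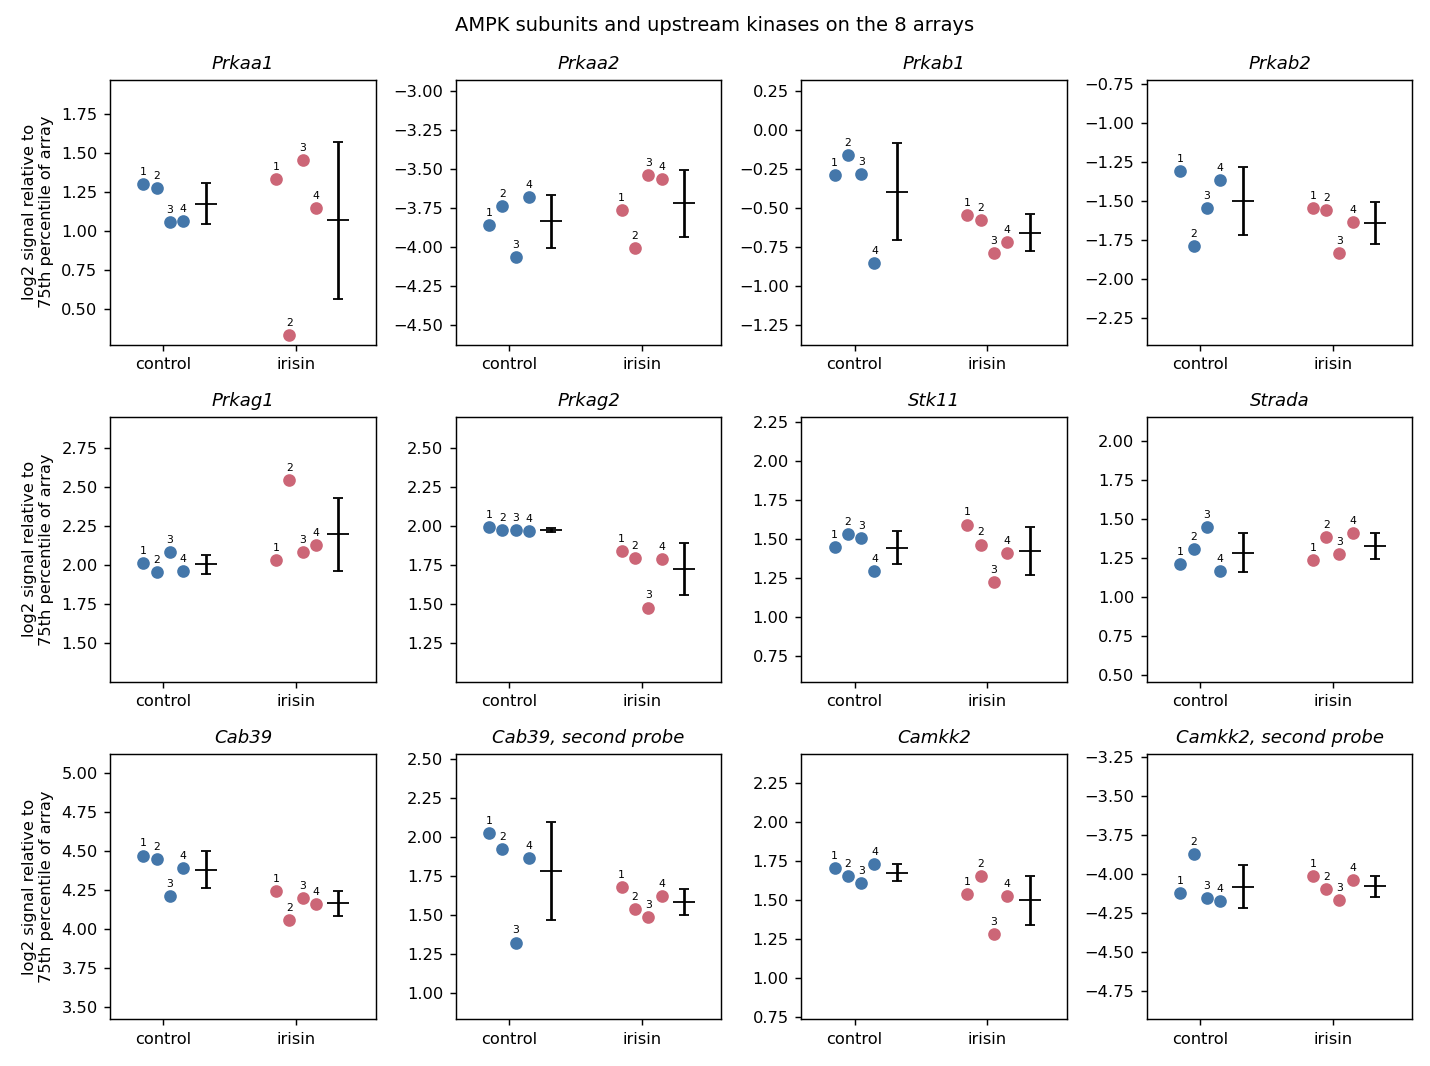
Each panel shows 1 probe, with its level (log2 signal minus the array's 75th percentile) on the y axis, 4 control arrays in blue and 4 irisin arrays in red numbered by replicate, and the mean ± SD as a black bar. Every y axis spans the same range, and only Prkag2 has all irisin arrays (1.48 to 1.84) below all control arrays (1.97 to 2.00).

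A difference between the log2 signals of 2 probes on the same array is left as it is by any scaling that multiplies the whole array by a constant. Such differences were taken for the α, β and γ paralog pairs, 3 pairs in all, and this comparison was chosen after the values of the single genes had been seen. Prkag1 minus Prkag2 was 0.017, −0.020, 0.11 and −0.0070 in the control arrays. In the irisin arrays the same difference was 0.19, 0.75, 0.61 and 0.34. Every irisin array exceeded every control array, and the spread was wider with irisin. The difference went from 0.026 ± 0.060 to 0.47 ± 0.252 (SD, n = 4 each), so the ratio of γ1 to γ2 signal was 1.36-fold higher with irisin. Its exact permutation p was 0.0286 before adjustment, and adjustment over 3 pairs takes it to 0.0857. Leaving out any single array left the difference between groups at 0.35 to 0.54, and over the other ways of background correction and scaling it ran from 0.44 to 0.49. As it was picked after the changes of Prkag1 and Prkag2 were known, it gives these in another form and adds no independent support, and it does not say which of the transcripts moved, nor which is more abundant.

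The corresponding α and β pairs overlapped between groups. Prkaa1 minus Prkaa2 changed by −0.22 (exact permutation p = 0.229) and Prkab1 minus Prkab2 by −0.12 (exact permutation p = 0.629). Over the other ways of background correction and scaling the α value ran from −0.71 to 0.14 and the β value from −0.34 to −0.12. With an array left out they ran from −0.32 to −0.073 and from −0.32 to 0.057. Prkab1 minus Prkab2 spread from 0.51 to 1.63 in the control arrays but only from 0.92 to 1.05 in the irisin arrays.

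**Figure D3:**
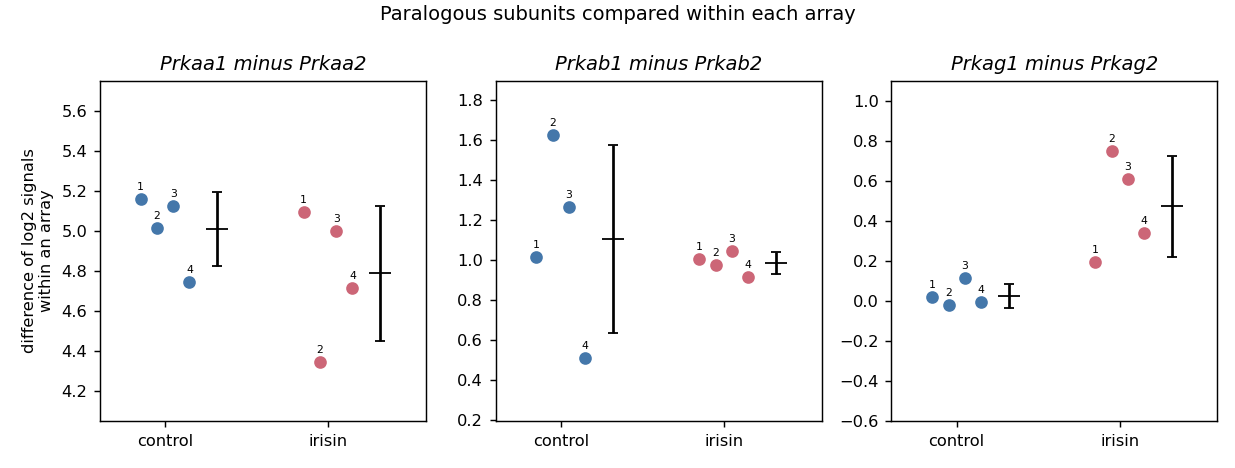
The y axis is the difference between the log2 signals of 2 paralogous subunits on the same array, for 4 control (blue) and 4 irisin (red) arrays numbered by replicate, with the mean ± SD in black. The γ pair runs from −0.020 to 0.11 in control arrays and from 0.19 to 0.75 in irisin arrays, while the α and β pairs overlap.

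The changes of both catalytic subunits were smaller than the spread between arrays of a group. Prkaa1, encoding α1, measured 1.30, 1.28, 1.06 and 1.06 in the control arrays and 1.33, 0.34, 1.46 and 1.15 in the irisin arrays. A single low array, irisin replicate 2, set the irisin mean below the control mean, and the other irisin arrays lay from within the control range to above it. The change was −0.11 (95% interval −0.57 to 0.36, exact permutation p = 0.914) and turned to 0.14 without that array. That same array was the highest for Prkag1, so its α1 and γ1 values departed from those of its group in opposite directions. Prkaa2, encoding α2, was a dim probe with processed signals of 25.7 to 71.8, where negative control spots had array medians of 0.988 to 1.01. Its log2 values were −3.86, −3.74, −4.06 and −3.68 in control arrays and −3.76, −4.01, −3.54 and −3.57 in irisin arrays. The groups overlapped widely and the change was 0.12 (95% interval −0.16 to 0.39, exact permutation p = 0.457). It was 0.28 after quantile normalization and 0.31 after cyclic loess. After normexp background correction with faulty local backgrounds repaired it was −0.30 (limma adjusted p = 0.0096, under 1.5-fold). All irisin arrays then lay below all controls, as for 4788 of the 14312 genes tested.

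The β subunits tether α to γ and place the complex at membranes and glycogen. Prkab1, for β1, had the largest change of the 10 members in size, from −0.40 ± 0.310 to −0.66 ± 0.117 (SD, n = 4 each). Its arrays measured −0.29, −0.16, −0.28 and −0.85 in controls and −0.54, −0.58, −0.79 and −0.72 with irisin. Control replicate 4 lay below all irisin arrays and the other controls above them, so the groups overlapped through that array alone. The change was −0.26 (95% interval −0.58 to 0.059, limma adjusted p = 0.239) and the exact permutation p was 0.200, and without control replicate 4 the change was −0.41. Prkab2, for β2, ranged from −1.79 to −1.31 in control arrays and from −1.84 to −1.55 in irisin arrays, with a change of −0.14 (95% interval −0.41 to 0.12). The 3 genes whose values over the 8 arrays followed those of Prkab1 most closely, after each gene's mean was subtracted, were Tyk2, Vps37c and Ptdss2, with root mean square differences of 0.0743, 0.0806 and 0.0825 on the log2 scale.

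Of the LKB1 complex, the kinase and its pseudokinase partner showed the smallest changes. Stk11, which encodes LKB1, ranged from 1.30 to 1.53 in control arrays and from 1.23 to 1.59 in irisin arrays. Its change was −0.021 (95% interval −0.24 to 0.20), so on this scale a difference of more than 1.18-fold in either direction lay outside the interval. Scaled to the spike-in controls of the arrays, the change of Stk11 was 0.56 (95% interval 0.10 to 1.01). With no scaling it was 0.72 (95% interval 0.36 to 1.08), so the bound depended on the scaling. Strada, encoding the pseudokinase that binds and activates LKB1, ranged from 1.17 to 1.45 and from 1.23 to 1.41, a change of 0.043 (95% interval −0.16 to 0.24). For both genes the irisin range and the control range covered nearly the same values.

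Cab39 encodes the scaffold protein MO25α of the same complex. Its brighter probe measured 4.47, 4.45, 4.21 and 4.39 in control arrays and 4.24, 4.05, 4.20 and 4.16 in irisin arrays. Control replicate 3 fell among the irisin arrays and the other controls lay above them. The change was −0.22 (95% interval −0.41 to −0.021), with an exact permutation p of 0.0571 and a limma adjusted p of 0.107. It was −0.11 after quantile normalization, −0.091 after cyclic loess and −0.040 after the repaired normexp background correction, each with an interval that held 0. The second Cab39 probe read 2.03, 1.92, 1.32 and 1.87 in controls and 1.68, 1.54, 1.49 and 1.62 with irisin. Here too control replicate 3 was the low control, and the change of −0.20 was close to that of the brighter probe, with a within-array difference between the probes that changed by −0.012 (exact permutation p = 0.943). Without control replicate 3 the second probe changed by −0.36 (limma adjusted p = 0.021, under 1.5-fold).

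Camkk2 encodes the kinase that activates AMPK in response to calcium, independently of LKB1. The brighter of its probes measured 1.71, 1.65, 1.61 and 1.73 in control arrays and 1.54, 1.65, 1.28 and 1.53 in irisin arrays. Irisin replicate 2 lay within the control range and the other irisin arrays below it. The change was −0.18 (95% interval −0.38 to 0.032), with an exact permutation p of 0.0571 and a limma adjusted p of 0.221. Without irisin replicate 3 it was −0.10. A second probe, designed to another Camkk2 transcript accession, was dim, ran from −4.17 to −3.87 in control arrays and from −4.17 to −4.01 in irisin arrays, and changed by 0.0021 (95% interval −0.20 to 0.20). The within-array difference between the probes changed by −0.18 (exact permutation p = 0.171).

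Gene probes read brighter on the irisin arrays, while the spike-in controls overlapped between groups. The mean log2 signal of the spike-ins was 11.38 to 11.82 on control arrays and 11.32 to 12.05 on irisin arrays. The sign of the change of 7 members, all but Prkag1, Prkaa2 and Strada, turned with the scaling of the arrays. Scaled to the spike-in controls, in place of the 75th percentile, the median of all genes was 0.51 and the members ran from 0.32 to 0.77. With no scaling the median gene was at 0.67 and the members at 0.48 to 0.93. Under these scalings 3 members (Prkag1, Prkaa2 and Strada) and 6 members (these and Prkaa1, Prkab2 and Stk11) were called higher and none lower, among 4781 and 9562 genes called higher. Relative to the median gene the members lay between −0.20 and 0.26 in both. This could not differ, as a constant for each array moves all genes together. With cyclic loess, which is no such constant, they lay between −0.29 and 0.29, and with normexp background correction on all spots between −0.47 and 0.41. The share of higher genes among all called was 4.94% with the 75th percentile, 34.4% with quantile normalization, 38.5% with cyclic loess, 96.3% with the spike-ins and 99.2% with no scaling.

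**Figure D4:**
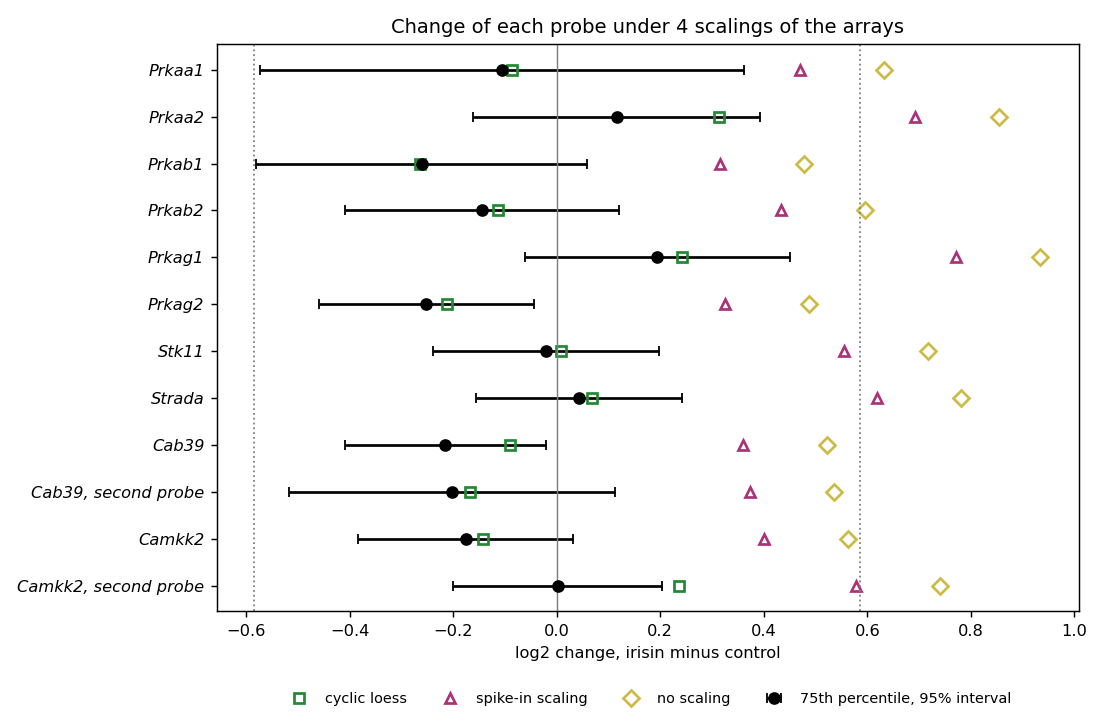
For each probe the x axis gives the log2 change (irisin minus control), as a black point with its 95% interval after scaling to the 75th percentile, and as open symbols after scaling by cyclic loess, by the spike-ins or not at all. Dotted lines mark 1.5-fold, which no black interval reaches, while spike-in scaling and no scaling move every probe above 0.

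The rest of the pathway was described with 66 further genes in 5 lists, of which 62 were tested. Of these 62 genes 0 were called higher and 4 lower, their median change was −0.037, and 19 lay above 0, where 0.531% of all genes were called higher and 10.2% lower. The 4 genes called lower were all among the 10 tested genes of the dimmest 3 classes, in which 33.0% of all probes were called lower, and their mean processed signals were nearly equal in both groups, as given below for each. Of the 62 genes, 0 were called lower without scaling, with the spike-ins, with cyclic loess or with quantile normalization. The methods' test called 2 of the 4 lower, Prkag3 and Brsk2, and not Mark4 or G6pc.

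The first list held paralogs of the members and Map3k7, which encodes TAK1, another kinase proposed to act on AMPK. All were measured, and 1 of 5 was called lower. It was Prkag3, the γ3 subunit known from skeletal muscle. Prkag3 measured −4.93, −5.11, −4.99 and −4.89 in control arrays and −5.77, −5.39, −5.92 and −5.72 in irisin arrays. The groups were apart, with a change of −0.72 (SE 0.116, limma adjusted p = 0.0011), and the mean processed signal before scaling was 15.0 in control and 15.1 in irisin arrays. The median of the list was −0.094, and the next lowest gene was Stradb at −0.20, whose second probe gave 0.14. The highest were Camkk1 at 0.046 and Cab39l at −0.065, and the other probes of Cab39l gave 0.13 and −0.043. Map3k7 was at −0.094 by its brightest probe. Its other probes gave 0.28 (limma adjusted p = 0.048, under 1.5-fold) and −0.027, so they disagreed in sign.

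Among AMPK regulators 11 of 12 genes were tested and none was called, with a median of −0.076. Sesn2, a stress-induced sestrin that binds the GATOR complex and AMPK, was the lowest at −0.39 (limma adjusted p = 0.030, under 1.5-fold), with values of 0.0029 to 0.17 in control arrays and −0.51 to −0.0012 in irisin arrays. Lamtor1, the lysosomal anchor on which LKB1 and AMPK meet, was at −0.23. The highest were Adipor1, an adiponectin receptor, at 0.15 and the phosphatase gene Ppm1a at 0.077. Ppm1e was not well above background.

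The AMPK-related kinases are also switched on by LKB1. Of 12 such genes 11 were tested, 2 were called lower and none higher, and the median was −0.11. Brsk2, a kinase known from neurons, changed by −0.79 (limma adjusted p = 0.0050) at mean processed signals of 10.7 in control and 10.1 in irisin arrays. Mark4, a microtubule-affinity regulating kinase, changed by −0.65 (limma adjusted p = 0.013) at 11.7 and 12.2. Nuak2 at 0.021 and Brsk1 at 0.013 (−0.11 by its second probe) were the highest of the list, and Mark1 was not well above background.

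Genes for AMPK substrates were the largest list, with 26 of 27 tested, none called and a median of −0.027. Pfkfb2, whose enzyme is phosphorylated by AMPK and makes a fructose bisphosphate that activates glycolysis, was the highest. It measured −2.11, −2.13, −2.09 and −1.74 in control arrays and −1.44, −1.50, −1.41 and −1.54 in irisin arrays. All irisin arrays lay above all controls, with a change of 0.55 (95% interval 0.32 to 0.77, limma adjusted p = 0.0025) that was under 1.5-fold. After cyclic loess it was called higher with a change of 0.59, and without control replicate 4 with a change of 0.64. At the low end were the dim Foxo3, a stress-response transcription factor, at −0.58 (limma adjusted p = 0.016) and Tfeb, the transcription factor of lysosome biogenesis, at −0.33 (limma adjusted p = 0.034). Gys2 was not well above background.

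Gluconeogenic and lipogenic genes lie downstream of AMPK in liver, and 9 of 10 were tested. G6pc, encoding the last enzyme of glucose production, was the 1 gene called lower, by −0.73 (limma adjusted p = 0.0095) at mean processed signals of 10.6 in control and 10.8 in irisin arrays. None was called higher and the median was −0.011. The sterol synthesis gene Hmgcs1 was at −0.17 by its brighter probe and 0.18 by the other, while Gpam and Scd1, which act in triglyceride synthesis and fatty acid desaturation, were at 0.26 and 0.16. Pck1 was well above background on 1 array and was not tested.

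**Figure D5:**
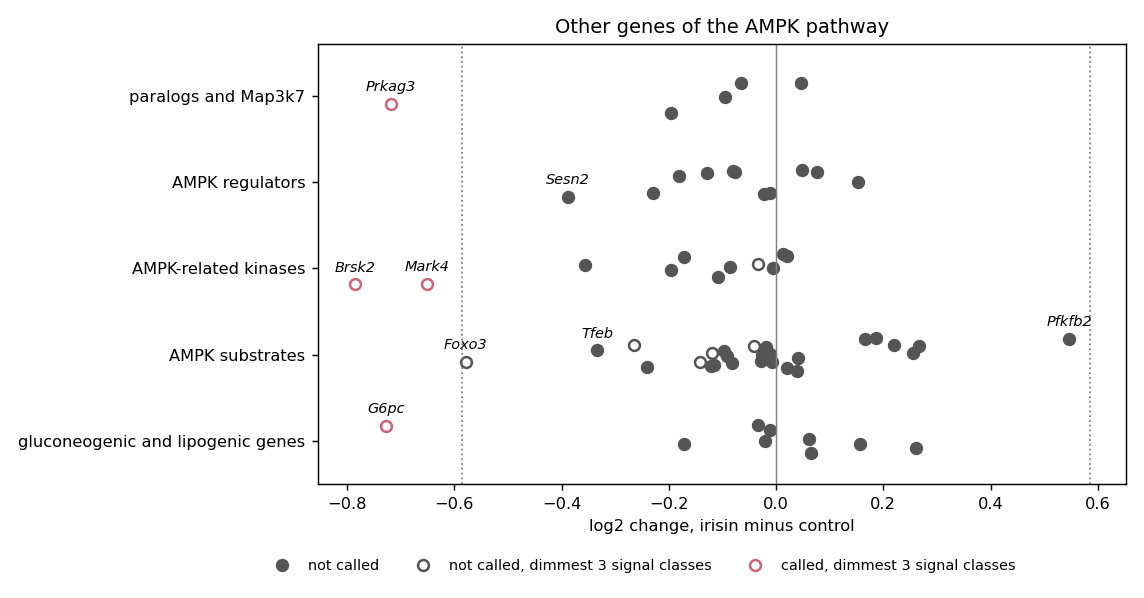
Each point is 1 of the 62 tested genes in 5 lists, with its log2 change (irisin minus control) on the x axis and dotted lines at 1.5-fold. Open symbols are genes of the dimmest 3 signal classes, and the 4 genes called lower (Prkag3, Brsk2, Mark4 and G6pc, in red) are all of this kind.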

How the data were processed

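RNA from 4 control and 4 irisin-treated AML12 samples was measured on one-color Agilent arrays, and groups, dose and time were taken from the deposited labels. The authors labeled the RNA with Cy3 and read the scans with Feature Extraction 12.0.3.1, and the deposited intensity values are its processed signals, after background subtraction, spatial detrending and error modeling. The authors' deposited value table held the means of the same processed intensity over the spots of a probe, with no log and no centering, and was used as an alternative. The headers name another array design than the one in the published methods, so the files' own annotation was followed.

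From the deposited intensity, control spots and spots marked as faulty were left out, spots of a probe were averaged, and log2 values minus the 75th percentile of each array were taken. Probes were named by transcript accession through RefSeq, 28663 of 39429 (72.7%). The files' coordinates are on mm9 and the RefSeq table on GRCm38.p6, so no coordinates are given, and probe and protein sequences were not used here. Tested probes were those well above background on every array of 1 or both groups (24093 probes, 14312 genes), with limma 3.58.1 in R 4.3.3 (lmFit and eBayes), Benjamini-Hochberg adjustment over all tested probes, and calls at 1.5-fold and adjusted p under 0.05, the thresholds of the study's methods. A gene was represented by its probe of highest mean signal. Single values were also compared by exact two-sided permutation over 70 assignments. The script was tested on simulated data. Precision is limited by how many arrays there were.

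The text names every member, the genes of each list that were called, the lowest and highest pair of genes of each list, and the 3 genes nearest to the member of largest change, except 1 gene that is not reported here. Members and lists were chosen with earlier results of these data known. Alternatives were background correction by normexp, quantile, cyclic loess, spike-in, median or no scaling, the value table, other filters, marked spots kept, trend and robust eBayes, the mean over a gene's probes, a replicate block, the methods' test, and leaving out each array.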

Additional observations from a re-analysis of the deposited data

Results flagged for a closer look

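Within each group of 4 arrays, the highest and lowest value was compared with the nearest other array by Dixon's test, at its 95% critical value. Of 30 groups (member probes and within-array differences) 2 held an array apart, where chance gives about 1 in 20. For Prkag2, irisin replicate 3 at 1.48 lay below the other irisin arrays at 1.79 to 1.84. For the dim second probe of Camkk2, control replicate 2 at −3.87 lay above the other control arrays at −4.17 to −4.12. The cause of neither was tested.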

How the results depend on the processing

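Of 254 recomputed changes of the member probes, 216 kept direction and side of the threshold, and 31 turned in sign. The 216 include settings that could not differ, as they refit the same values. These were no filter, the stricter filter, trend and robust eBayes and the replicate block, with 12 changes each. Keeping marked spots and the value table, also 12 each, could hardly differ, as no member spot was marked. Of these 254, 10 newly passed the threshold, 3 of them among those that turned. Members called lower stayed at 0 in every setting. Members called higher (0) were 3 after scaling to the spike-ins and 6 unscaled. Members apart with irisin higher (0) were 1 with quantile normalization, 1 with cyclic loess, 2 with the spike-ins and 9 unscaled. In the same order, 1336, 1502, 5928 and 10324 of all 14312 genes tested were apart in that way. With an array left out these members were 0 to 1, beside 654 to 1223 of 14318 to 14508 genes. Members apart with irisin lower (1) were 2 after the repaired normexp, 0 after spike-in scaling and 0 unscaled. In the same order, 4788, 157 and 74 of the 14312 genes were apart in that way. With an array left out these members were 1 to 3, beside 2926 to 4190 genes. With spike-in scaling the changes of Cab39 (0.36, second probe 0.37), Camkk2 (0.40), Prkaa1 (0.47), Prkab1 (0.32), Prkab2 (0.43), Prkag2 (0.32) and Stk11 (0.56) turned. With no scaling the same probes gave 0.52, 0.54, 0.56, 0.63, 0.48, 0.59, 0.49 and 0.72. Planned normexp, on all spots, gave Prkab2 0.20 and Strada −0.0096 and called 0 genes higher and 0 lower. On irisin replicates 2 and 4 a few spots had a very high local background, so a repaired normexp with the marked backgrounds at the array median was chosen after seeing the data. It gave the second Camkk2 probe −0.34, Prkaa2 −0.30 and Stk11 0.12. Cyclic loess gave Stk11 0.0075 and the median of detected probes gave the second Camkk2 probe −0.012. With an array left out, Prkaa1 ran from −0.24 to 0.14, Stk11 from −0.077 to 0.045 and the second Camkk2 probe from −0.029 to 0.071. The cause of these changes was not tested.

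Genes called higher (76) were 24 with repaired normexp, 286 with quantile normalization, 306 with cyclic loess, 4781 with spike-in scaling, 9562 with no scaling, 48 with the methods' test and 379 by adjusted p alone, and 42 (without irisin replicate 3) to 149 (without irisin replicate 2) with an array left out. Genes called lower (1461) were 546, 488, 184 and 81 with quantile, cyclic loess, spike-in and no scaling, 6263 with no filter on dim probes and 2564 by adjusted p alone, and 1386 to 1614 with an array left out. Pathway genes called higher (0) were 1 with cyclic loess, 19 with the spike-ins and 46 unscaled, and 0 to 1 with an array left out. The 4 called lower were 0 with planned normexp, quantile, cyclic loess, spike-in and no scaling, 7 with no filter, 2 with the methods' test and 7 by adjusted p alone (which called 1 higher), both added for this list after seeing the data, and 3 to 5 with an array left out.

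Replicate numbers are shared between the groups, but same-numbered arrays did not deviate together (correlations of 0.11, −0.35, −0.13 and 0.17 over probes), and control replicate 2 correlated best with irisin replicate 1 (0.36). With the replicate block limma called 76 genes higher and 1469 lower, 0 members and 4 pathway genes, all lower.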
